A study of Mus musculus with 16 samples.

Results

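The genes examined here encode the histone methyltransferases of the COMPASS family and DOT1L, with the core subunits that the COMPASS enzymes share. They are 10 of the 21938 protein-coding genes annotated in the mouse genome: Dot1l, Setd1a, Setd1b, Kmt2a, Kmt2b, Kmt2c, Kmt2d, Wdr5, Ash2l and Rbbp5. They were taken by gene symbol, for the part their products have in writing the methyl marks that depend on or accompany ubiquitylation of histone H2B. All 10 were found in the GENCODE M21 annotation and all are autosomal.

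The study asked how chromatin changes when ATXN7L3 is missing, the adaptor that the deubiquitylases USP22, USP27X and USP51 need to take monoubiquitin off histone H2B (H2Bub1). ChIP-seq maps of H2Bub1 and of RNA polymerase II (Pol II, immunoprecipitated through its largest subunit RPB1) were made from Atxn7l3+/+ cells (WT) and Atxn7l3-/- cells (KO). The KO allele is a constitutive null, derived from the targeted allele by crossing to a FLP deleter strain. Mouse embryonic stem cells (mESCs) were derived from blastocysts and grown with LIF and the kinase inhibitors PD0325901 and CHIR99021, and mouse embryonic fibroblasts (MEFs) were grown from single E10.5 embryos without head and gut. The mice were of mixed DBA/2 x C57BL/6 background. Each of the 8 groups (mark, cell type and genotype) was 1 library, so no difference given here has a replicate check, no p-value is given, and the culture and the genotype cannot be told apart. The read depth behind the peak lists is unknown, and in a bulk culture fewer marked cells and less mark per cell cannot be told apart.

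Before the genes are described, the lists themselves need a word. The Pol II lists were shorter in KO, with 17074 (WT) and 11963 (KO) peaks for mESCs and 45870 (WT) and 32232 (KO) for MEFs. The H2Bub1 lists were longer in KO, with 40979 (WT) and 48952 (KO) for mESCs and 19725 (WT) and 28856 (KO) for MEFs. Pol II peaks lay at the promoters of Nanog, Pou5f1, Sox2 and Tfcp2l1, which mark pluripotency, in both mESC libraries, and at those of Twist2, Thy1, Col1a1 and Col1a2, which mark fibroblasts, in each MEF library but no mESC library. The exception was Tfcp2l1, which had a promoter peak of 7.08-fold in KO MEFs as well. At another annotated start of Col1a1 a Pol II peak of 3.19-fold was called in WT mESCs. The 4 fibroblast markers had lower folds in KO than in WT MEFs: Col1a1 had 23.9 (KO) and 38.3 (WT), Col1a2 19.4 and 43.3, Thy1 7.11 and 13.4, and Twist2 5.38 and 10.47. The peak lists hold no measure of ATXN7L3 itself. The Atxn7l3 promoter kept a Pol II peak in KO cells, of 3.71-fold in mESCs and 23.4-fold in MEFs. H2Bub1 peaks covered 100% (WT) and 62.5% (KO) of the Atxn7l3 body in mESCs, and 22.0% (WT) and 65.3% (KO) in MEFs. The values go opposite ways in the cell types and do not serve as a check of the labels.

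COMPASS complexes methylate lysine 4 of histone H3 (H3K4). Each contains 1 catalytic subunit of the SET domain type, and WDR5, RBBP5 and ASH2L form the shared core without which the catalytic subunits work poorly. SETD1A and SETD1B deposit most of the trimethyl mark at active promoters, KMT2A and KMT2B act at developmental genes and CpG-rich promoters, and KMT2C and KMT2D place the monomethyl mark at enhancers. DOT1L has no SET domain and methylates H3K79 in the bodies of transcribed genes. H2Bub1 is laid down behind elongating Pol II and is known to stimulate both DOT1L and SETD1 enzymes.

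Promoter sequences for 7 of the 10 genes were matched by symbol in a RefSeq table on GRCm38.p6, which runs from 250 bases before to 50 after the RefSeq start. Setd1b, Kmt2b and Ash2l had no entry. Of these, 3 are printed for their Pol II values in mESCs, namely Dot1l and Rbbp5, which had the lowest KO to WT ratios, and Kmt2a, whose peak was found in WT only. Kmt2c is printed as the promoter richest in CG dinucleotides. Each is given 5′ to 3′ on the strand of its gene, and capitals mark matches on either strand to the GC box (GGGCGG) or to the core of ETS factor sites (CCGGAA). The Dot1l promoter is at chr10:80754953-80755252 (plus strand), that of Kmt2a at chr9:44881240-44881539 (minus strand), that of Kmt2c at chr5:25498734-25499033 (minus strand) and that of Rbbp5 at chr1:132477117-132477416 (plus strand).
Dot1l: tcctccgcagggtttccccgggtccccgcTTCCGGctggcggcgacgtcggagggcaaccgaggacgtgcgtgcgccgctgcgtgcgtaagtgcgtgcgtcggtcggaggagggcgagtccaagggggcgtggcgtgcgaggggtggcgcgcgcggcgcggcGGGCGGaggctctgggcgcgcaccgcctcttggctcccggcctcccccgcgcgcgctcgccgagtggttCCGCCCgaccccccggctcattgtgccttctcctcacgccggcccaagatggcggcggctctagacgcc
Kmt2a: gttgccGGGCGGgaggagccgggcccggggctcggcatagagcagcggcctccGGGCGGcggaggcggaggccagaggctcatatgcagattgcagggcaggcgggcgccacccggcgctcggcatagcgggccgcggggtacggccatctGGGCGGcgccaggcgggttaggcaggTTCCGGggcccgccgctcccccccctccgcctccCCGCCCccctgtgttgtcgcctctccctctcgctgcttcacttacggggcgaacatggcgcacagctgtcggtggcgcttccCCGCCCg
Kmt2c: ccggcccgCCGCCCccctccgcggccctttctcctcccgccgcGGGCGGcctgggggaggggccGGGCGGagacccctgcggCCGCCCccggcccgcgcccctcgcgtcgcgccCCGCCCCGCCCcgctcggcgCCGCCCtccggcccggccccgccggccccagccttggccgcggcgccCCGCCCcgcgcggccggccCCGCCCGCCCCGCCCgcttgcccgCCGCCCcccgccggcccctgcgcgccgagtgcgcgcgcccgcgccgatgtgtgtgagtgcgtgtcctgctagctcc
Rbbp5: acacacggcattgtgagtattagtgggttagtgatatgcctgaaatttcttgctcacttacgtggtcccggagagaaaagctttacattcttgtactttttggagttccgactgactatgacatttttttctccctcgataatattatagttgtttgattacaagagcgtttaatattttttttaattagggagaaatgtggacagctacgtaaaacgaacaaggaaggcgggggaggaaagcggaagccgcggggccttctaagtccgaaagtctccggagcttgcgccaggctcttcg
The Kmt2c promoter held 12 GC boxes and 56 CG dinucleotides, that of Kmt2a 5 and 36, and that of Dot1l 2 and 49. The Rbbp5 promoter was the sparsest, with no GC box and 16 CG dinucleotides, against a median of 14 over the 20150 promoters of the table. The median of the 7 was 35. A GC box was present in 5 of the 7 and in 47.8% of all promoters of this length, and an ETS core in 2 of the 7, Dot1l and Kmt2a, against 19.2% of all. The TATA box (TATAAA) was in none of the 7 and in 12.1% of all, and the box spelled CCAAT in none of the 7 and in 37.8% of all. The Pol II values below were read in a wider window, 1000 bp on either side of the start of the GENCODE gene record, and some of the summits, as those of Kmt2a and Kmt2c in WT mESCs, lie outside the printed bases.

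H2Bub1 was measured as the covered share, the percentage of a gene body that lies inside H2Bub1 peaks of 1 library. In mESCs the 4 genes with the lowest WT share were the 4 that were higher in KO by 10 percentage points or more, a description in which the WT value enters both sides. Kmt2b, Kmt2d and Dot1l were among the most widely covered genes of the genome in WT mESCs, above 96.7%, 96.6% and 95.6% of all genes. Kmt2c was the lowest of the 10, above 55.7% of all genes. There is no spread between replicates to say which neighbours in this order differ.

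Dot1l, a gene of 40.3 kb on chromosome 10, had mESC covered shares of 81.6% (WT) and 81.9% (KO) and MEF shares of 34.1% (WT) and 74.5% (KO). The near equality in mESCs did not hold for strong peaks: with a -log10 q of 3 or more, where q is the peak caller's p-value corrected for multiple testing, Dot1l was 15.5 points higher in KO, and with peaks less than 1000 bp apart joined the difference was -4.53 points. WT MEFs were thus the only library in which most of this gene lay outside peaks. Its first 5000 bp were nearly filled in every library, from 99.6% in WT mESCs to 100% in the other three, so that the low WT MEF value came from the rest of the gene. The mean fold enrichment of its peaks over their local background, weighted by length, was 3.12 (WT) and 3.82 (KO) for mESCs, and 3.20 (WT) and 5.44 (KO) for MEFs.

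The genes of the SETD1 enzymes, 23.5 kb (Setd1a) and 26.4 kb (Setd1b) long, each overlap at least 1 other annotated gene. Setd1a had covered shares of 48.0% and 58.7% in WT and KO mESCs, and 23.1% and 46.2% in WT and KO MEFs. Its body shares 61.9% of its length with another protein-coding gene, Gm49388, on the same strand, which starts 8938 bp from the Setd1a TSS. Over the shared part the marks of the pair cannot be told apart. The first 5000 bp, outside Gm49388, were covered over 60.1% and 94.3% in WT and KO mESCs, and 69.3% and 100% in WT and KO MEFs. Setd1b was covered over 68.5% and 69.8% in WT and KO mESCs, and over 10.4% and 67.3% in WT and KO MEFs. That was the widest gap between the MEF genotypes among the 10 genes, 57.0 percentage points. The whole of Setd1b lies within the antisense lincRNA gene Gm26745.

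Kmt2a, known for the upkeep of Hox gene expression, spans 77.9 kb and had mESC shares of 35.4% (WT) and 49.0% (KO) and MEF shares of 35.2% (WT) and 54.3% (KO). The WT values of both cell types were nearly equal, and both KO values were higher. At its 5′ end the gap was wider: the first 5000 bp went from 29.4% covered in WT mESCs to 100% in KO, and from 34.9% in WT MEFs to 100% in KO. Its widest peaks ran for 28.3 kb in KO mESCs and for 35.0 kb in KO MEFs. Its paralogue Kmt2b, a gene of 19.9 kb, went the other way in mESCs, with 88.5% in WT and 85.1% in KO. In MEFs Kmt2b was covered over 15.8% in WT and 51.9% in KO, and its mean fold was 2.99 and 5.98.

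Kmt2c and Kmt2d encode paired enzymes but differed widely in covered share, most of all in mESCs. The share depends on gene length, in which they also differ. Kmt2c is the longest of the 10 genes at 227 kb, and its covered share was 2.42% (WT) and 15.0% (KO) for mESCs, and 16.3% (WT) and 41.8% (KO) for MEFs. In length these shares are 5.49 kb, 34.1 kb, 37.0 kb and 94.9 kb, and a single peak of KO MEFs ran for 64.0 kb. In WT mESCs the cover was 1 peak over the start of the gene and 3 more between 13468 bp and 48907 bp from the TSS. Kmt2c was more widely covered in MEFs than in mESCs in both genotypes, but for WT this did not hold for peaks with a -log10 q of 3 or more (-1.03 points). Kmt2d, 39.5 kb long, was covered over 88.1% and 88.8% in WT and KO mESCs, and over 54.2% and 73.4% in WT and KO MEFs. In length these shares are 34.8 kb, 35.1 kb, 21.4 kb and 29.0 kb. By length Kmt2c and Kmt2d were thus close in KO mESCs, and Kmt2c had more in both MEF libraries. Kmt2d had the highest share of the 10 in WT MEFs.

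The core subunit genes had shares from 5.02% to 19.2% in WT MEFs, within or below the range of the catalytic ones. Wdr5, whose product holds the core together, had 54.9% and 50.3% in WT and KO mESCs, and 11.3% and 29.2% in WT and KO MEFs. Its mESC direction turned with the strength of the peaks: with a -log10 q of 3 or more Wdr5 was 17.6 points higher in KO than in WT mESCs. Rbbp5 had 17.5% and 44.1% in WT and KO mESCs, and 19.2% and 46.9% in WT and KO MEFs. Ash2l had 51.8% and 58.9% in mESCs and 5.02% and 43.1% in MEFs. The start of the Ash2l gene record belongs to 1 of its 11 transcripts, and the other protein-coding transcripts start about 6.9 kb further in. The first 5000 bp of the record were at 0% in both MEF libraries, and in mESCs they were covered over 82.9% in WT and 100% in KO.

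**Figure D1:**
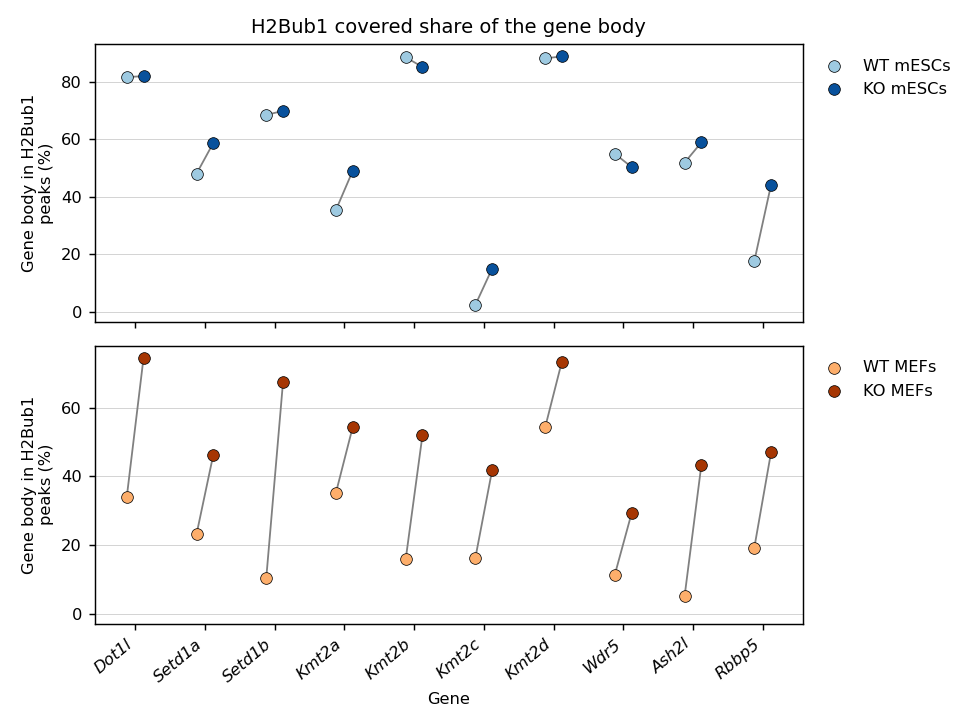
Percentage of the gene body inside H2Bub1 peaks (vertical axis) for the 10 genes, in mESCs (top) and MEFs (bottom), with 1 point per library and a line joining WT and KO of a gene. In MEFs each of the 10 lines goes up, by 17.9 to 57.0 points, and in mESCs 8 go up and 2, Kmt2b and Wdr5, go down (Wdr5 went up with the limit of 3 on -log10 q).

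Counted with a step of 10 percentage points, 4 of the 10 genes were more widely covered in KO than in WT mESCs, against 32.1% of all genes. They were Rbbp5 (26.5 points), Kmt2a (13.6), Kmt2c (12.6) and Setd1a (10.7), and the median difference over the 10 was 4.19 points. Which genes passed the step depended on the peaks used: with the limit of 3 on -log10 q Setd1a (6.40 points) and Kmt2c (6.09) did not, while Dot1l and Wdr5 did, and with equal numbers of peaks Setd1a (6.56) did not and the count was 3. Many genes of the genome are silent, so the closer background is the 5751 genes that had a Pol II promoter peak in both mESC libraries. Among those, 54.5% were higher by 10 points or more with a median of 12.1 points, and 3 of the 8 COMPASS and DOT1L genes with both peaks were, with a median of 1.02. Counts this small do not set the 8 genes apart from the others. Of those below the step, Dot1l, Kmt2b and Kmt2d had WT shares of 81.6% to 88.5%, Setd1b 68.5% and Wdr5 54.9%. The part of the WT share in these differences was not tested. With the limit of 3 on -log10 q, Setd1b (-0.49 points) and Ash2l (-3.61) were lower in KO mESCs. In MEFs all 10 genes were higher by 10 points or more, with a median of 26.6 points, against 45.0% of all genes. Among the 10892 genes with Pol II in both MEF libraries 82.1% were higher, with a median of 34.3 points. Of the COMPASS and DOT1L genes with both peaks 9 of 9 were, with a median of 25.5. The MEF count is thus close to what active genes in general gave.

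The height of the mark was compared in the same way. In mESCs 8 of the 10 genes had a higher mean H2Bub1 fold in KO than in WT, against 65.8% of the 11109 genes with a peak in both, and the exceptions were Kmt2c (3.46 in WT and 3.08 in KO) and Rbbp5 (3.40 and 3.28). In MEFs 10 of 10 were higher, from 2.98 and 3.02 for Ash2l to 2.99 and 5.98 for Kmt2b, against 82.4% of 6605 genes. Fold is relative to the background of each library, so it gives no absolute amount of H2Bub1.

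The position of the mark along the genes showed where the genotypes parted. Each gene body was divided into 10 equal bins, counted from the transcription start site (TSS). In WT mESCs the median cover over the 10 genes was 96.8% in the first bin, 100% in the second and 86.4% in the third, and below 60% from the fourth on. In KO mESCs the first 3 bins were at 100%, 100% and 97.2%, and the last 3 were below WT, at 40.1%, 25.4% and 43.1% against 50.5%, 42.6% and 45.5%. The last bin was empty at 2 (KO) and 4 (WT) of the 10, and at 52.7% and 59.2% of the genes with Pol II in both mESC libraries. For WT MEFs the median began at 71.9%, dropped to 49.1%, 36.6% and 23.6%, and was 0% from the fifth bin to the last. In KO MEFs the first 3 bins were at 100%, the fourth at 86.4% and the fifth at 49.6%, and the last was at 0%. The KO cover of these genes in MEFs therefore filled the 5′ part, and 7 of the 10 had none in their last bin, as did 9 of the 10 in WT MEFs. Over the genes with Pol II in both MEF libraries the last bin was empty at 65.7% (KO) and 91.4% (WT), and the first bin was full at 60.1% (KO) and 3.12% (WT), against 9 and 2 of these 10 genes. In mESCs the first bin was full at 8 (KO) and 4 (WT) of the 10, and at 57.9% and 22.8% of the genes with Pol II in both mESC libraries. Kmt2d departed from this shape in WT MEFs, with its sixth and seventh bins fully covered.

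**Figure D2:**
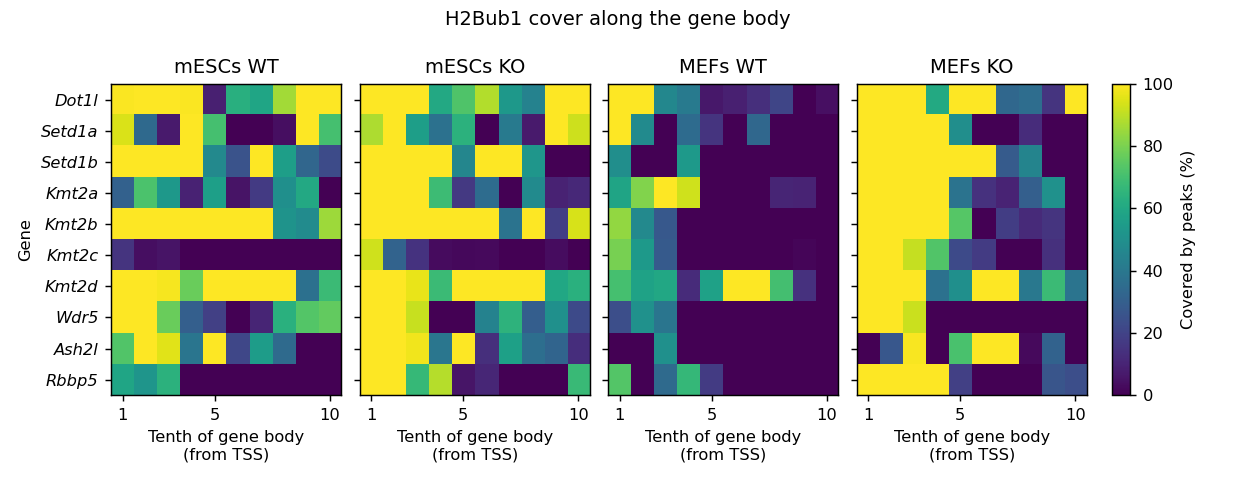
Cover by H2Bub1 peaks (colour, 0 to 100%) in each of 10 equal bins of the gene body, counted from the TSS (horizontal axis), for the 10 genes in each of the 4 libraries. In KO MEFs the first bin was full in 9 of the 10 genes, against 2 in WT MEFs, and Ash2l, whose record starts upstream of most of its transcripts, was the exception in KO MEFs.

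The TSS itself was read in the same way. It lay inside an H2Bub1 peak at 7 (WT) and 9 (KO) of the 10 genes in mESCs, and at 2 (WT, Dot1l and Setd1a) and 9 (KO) in MEFs. Over all genes, silent ones included, the shares were 17.8% and 38.6% in WT and KO mESCs, and 3.48% and 34.8% in WT and KO MEFs. The shares among genes with Pol II were not computed for the TSS. The gene without a covered TSS was Setd1a in KO mESCs and Ash2l in KO MEFs.

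Between the cell types, 7 of the 10 genes were less widely covered in WT MEFs than in WT mESCs by 10 points or more, against 23.0% of all genes, with a median of -38.7 points. Kmt2b showed the largest gap, -72.7 points. In KO cells 5 of the 10 were lower in MEFs, against 16.2% of all genes, with a median of -9.92 points, and this median was 9.91, of the opposite sign, with peaks limited to a -log10 q of 3 or more. The KO count was 3 with equal numbers of peaks, 2 at a step of 20 points and 1 over the first 5000 bp. The median mESC share over all genes was 0.87% (WT) and 5.64% (KO), against 53.4% and 58.8% for the 10. Most genes could therefore not be lower by 10 points in MEFs, and genes with Pol II were not counted separately here. Kmt2c was 13.9 points higher in WT MEFs and 26.8 points higher in KO MEFs, with the exception for WT given above. The H2Bub1 list of WT mESCs was about 2 times as long as that of WT MEFs. With equal numbers of peaks 7 of the 10 were again lower in WT MEFs, with a median of -37.2 points, while Kmt2a went from -0.19 to 10.1 points.

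Pol II was read as the fold enrichment of the highest peak that touches the promoter window. A peak was found in all 4 libraries at 8 of the 10 genes, against 25.2% of all genes. The exceptions were Kmt2a, which had none in KO mESCs, and Ash2l, which had none at the start of its gene record in any library. In mESCs each of the 8 genes with peaks in both genotypes had a lower fold in KO, and in MEFs the direction was mixed.

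Dot1l had Pol II promoter folds of 6.58 (WT) and 3.20 (KO) in mESCs, and of 16.9 (WT) and 17.5 (KO) in MEFs. The log2 ratio of KO to WT was -1.04 in mESCs, the lowest of the 8 genes with peaks in both genotypes, and 0.048 in MEFs. Its peak in mESCs had a -log10 q of 17.8 in WT and 3.55 in KO. The summits lay close to the TSS in the 4 libraries, at positions from -17 bp to 95 bp (negative values are upstream), in or next to the printed sequence.

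Among the catalytic COMPASS genes, Setd1a had folds of 7.01 and 5.40 in WT and KO mESCs, and 24.7 and 14.3 in WT and KO MEFs. Setd1b had 6.71 and 5.96 in mESCs, and 32.4 and 24.4 in MEFs, the highest of the 10 in WT MEFs. Its window also holds the TSS of AI480526, at -527 bp from its own, and the MEF peaks were 9713 bp and 9163 bp wide with summits at -991 bp and -3493 bp, so these values cannot be assigned to Setd1b alone. The WT MEF peak at Setd1a was likewise 9550 bp wide, with its summit at -6758 bp from the TSS, so its fold cannot be assigned to Setd1a alone.

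Kmt2a had a promoter fold of 4.24 in WT mESCs, with a -log10 q of 7.11 and the summit at -343 bp from the TSS, and no promoter peak in KO mESCs. The nearest Pol II peak of that library to its TSS lay 81660 bp away. In MEFs the folds were 12.0 in WT and 12.5 in KO, which are close to each other. A missing peak means that no call was made at the threshold of that list, and the signal beneath it is not in the lists. Kmt2b had 3.52 and 3.09 in WT and KO mESCs and 16.1 and 27.7 in WT and KO MEFs, the latter being 1.72 times the former. The TSS of the microRNA gene Mir3569 lies inside its window, at -654 bp. Kmt2b was the only one of the 10 whose MEF fold was higher in KO by at least 1.5 times.

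Kmt2c had 6.01 and 4.27 in WT and KO mESCs and 13.8 and 11.6 in MEFs. A lincRNA gene, 4831440E17Rik, starts at -284 bp from its TSS, and in both mESC libraries the highest summit lay on that side, at -894 bp (WT) and -814 bp (KO). The MEF values are of different peaks: the peak at 196 bp had 13.8 (WT) and 11.5 (KO), and the upstream one, at -682 bp (WT) and -730 bp (KO), had 10.505 and 11.56. Kmt2d had 4.57 and 3.02 in mESCs and 14.2 and 11.9 in MEFs. Its highest summits in mESCs were at different places, -900 bp in WT and -511 bp in KO. Beyond its 3′ end lay another Pol II peak, with folds of 5.67 (WT) and 3.66 (KO) in mESCs and 16.2 (WT) and 20.4 (KO) in MEFs, which was higher than the promoter peak in each of the 4 libraries. Genes that start beyond the 3′ end were not looked up, so this peak cannot be assigned to Kmt2d.

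For the core subunits, Wdr5 had 5.86 and 3.68 in WT and KO mESCs and 12.5 and 10.7 in WT and KO MEFs. In mESCs Wdr5 had 1 promoter peak in WT, at -36 bp, and 2 in KO, at -354 bp and 154 bp. Rbbp5 had 5.01 and 2.85 in mESCs and 11.3 and 7.12 in MEFs, so that it was lower in KO by at least 1.5 times in both cell types. The gene 6030442K20Rik starts at -301 bp from the Rbbp5 TSS, inside the window. Ash2l had peaks near the starts of its other transcripts, 6.5 to 7.2 kb inside the record, with folds of 4.16 and 4.53 for the highest of these in WT and KO mESCs and 15.5 and 22.8 in WT and KO MEFs. At those starts Ash2l was the one gene of the 10 that was higher in KO than in WT mESCs.

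**Figure D3:**
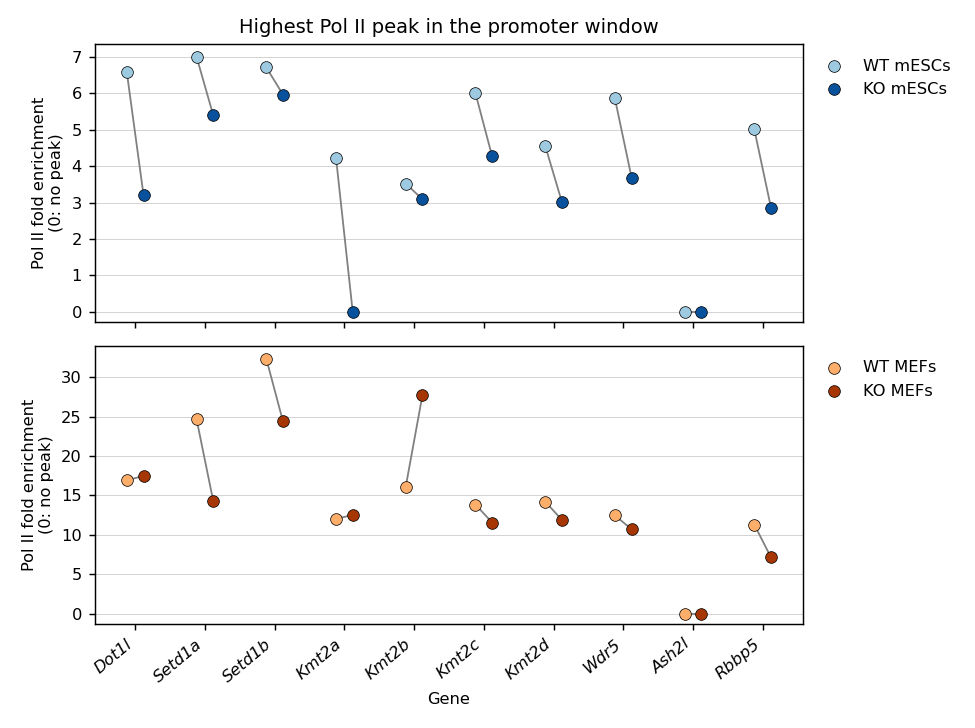
Fold enrichment of the highest Pol II peak in the promoter window (vertical axis, 0 where no peak was called) for the 10 genes in mESCs (top) and MEFs (bottom), with 1 point per library. The mESC lines slope down from WT to KO at each gene with a peak, with Kmt2a ending at 0, while Kmt2b goes up in MEFs.

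Over the genes together, 8 of 8 were lower in KO mESCs, against 47.5% of all genes with both peaks, and 4 of 8 (Dot1l, Rbbp5, Wdr5 and Kmt2d) were lower by at least 1.5 times, against 10.8%. The KO peak of Kmt2d had a -log10 q of 2.48, and with a limit of 3 it dropped out and 7 of 7 were lower. The Setd1b summit of WT mESCs lay outside the window, at -1045 bp, and with summits required inside it 7 of 7 were lower. In a window from 100 bp upstream to 300 bp downstream, where Kmt2c and Kmt2d had no ratio, 6 of 6 were lower and Setd1b had a log2 ratio of -0.62 in place of -0.17. The median log2 ratio was -0.55 for the 8 genes and 0.025 for all genes. Genes of like WT fold gave a similar background: of the 3759 genes whose WT fold lay within the range of these genes, 50.0% were lower in KO. Of the 9 genes with a WT peak 1, Kmt2a, had none in KO, against 22.6% of all WT promoters. The KO mESC list was the shortest of the Pol II lists, and the part of read depth in these values was not tested. When the lists were reduced to equal numbers of peaks, the values of the 8 genes stayed as they are, since none of their highest peaks was among those removed.

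In MEFs none of the 9 promoter peaks of WT was missing in KO, against 8.16% of all WT promoters. The fold was lower in KO at 6 of the 9 and higher at 3 (Dot1l, Kmt2a and Kmt2b), against 67.7% lower over all genes. Setd1a and Rbbp5 were lower by at least 1.5 times, 2 of 9 against 24.3%, and the Setd1a value rests on the wide WT peak described above. With the summit required inside the window, Setd1a and Setd1b had no ratio, and 4 genes were lower and 3 higher. The median log2 ratio of the 9 was -0.26 and that of all genes -0.23, so in MEFs these genes lay near the middle of all genes. The lower folds of the 4 fibroblast markers and the Tfcp2l1 peak in KO MEFs stand beside these values, and their part in them was not tested.

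**Figure D4:**
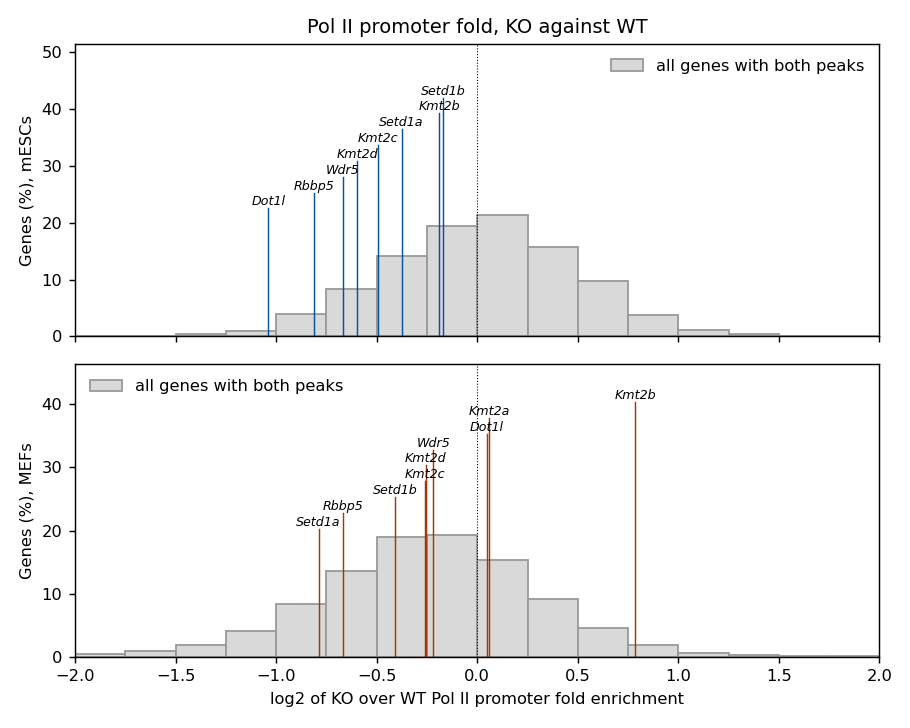
Distribution of the log2 ratio of KO to WT Pol II promoter fold over all genes with both peaks (grey bars, percent of genes per bin of 0.25), in mESCs (top) and MEFs (bottom), with coloured lines at the values of the named genes, whose heights only space the labels, and with ratios beyond 2 in either direction not drawn. All 8 lines lie left of 0 in mESCs, and 6 of 9 do in MEFs.

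Pol II peaks with a summit inside the gene body but outside the promoter window were few. In mESCs there were 10 such peaks in 5 of the 10 genes in WT and 6 in 3 genes in KO, and 4 of the 5 WT genes had fewer in KO, against 68.7% of all genes with a body peak in WT. In MEFs there were 12 in 5 genes in WT and 5 in 4 genes in KO, with fewer at 3 of 5, against 64.2%. These differences depended on the length of the lists: with equal numbers of peaks mESCs had 6 (WT) and 6 (KO), and MEFs had 2 (WT) and 5 (KO). The counts include Ash2l peaks near the starts of its other transcripts, in mESCs 2 (WT) and 1 (KO) and in MEFs 1 and 1. Kmt2b had 2 body peaks in WT mESCs and 4 in WT MEFs, and none in either KO library. Dot1l had 3 in each mESC library and 2 in each MEF library, most of them in the last 7 kb of the gene, with summits at different positions in WT and KO. The highest, in WT mESCs, was 7.17-fold over 2397 bp with its summit in an exon 37412 bp from the TSS, above the promoter peak of that library, and the KO mESC peaks in the body were 3.11-fold to 3.37-fold.

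The other genes of these pathways were read in the same way, as 3 lists fixed by function: 13 further COMPASS subunits, 7 partners of DOT1L and 5 demethylases that remove H3K4 methylation. In mESCs the H2Bub1 covered share was higher in KO by 10 points or more at 7 of 13, 4 of 7 and 2 of 5, 13 of the 25 in all, with a median of 10.3 points. That share lay between the 32.1% of all genes and the 54.5% of genes with Pol II given above. None was lower by 10 points. In MEFs it was higher at 12 of 13, 6 of 7 and 5 of 5, with a median of 36.1 points, against 45.0% of all genes and 82.1% of those with Pol II. The largest was Men1, the menin subunit of KMT2A and KMT2B complexes, at 31.1% and 99.9% in WT and KO mESCs and 0% and 100% in WT and KO MEFs. Mllt6, a partner of DOT1L, was at 100% in both mESC libraries and at 3.88% and 38.7% in WT and KO MEFs. Aff3, a very long gene, was at 0% in both WT libraries, 0.26% in KO mESCs and 0.23% in KO MEFs.

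**Figure D5:**
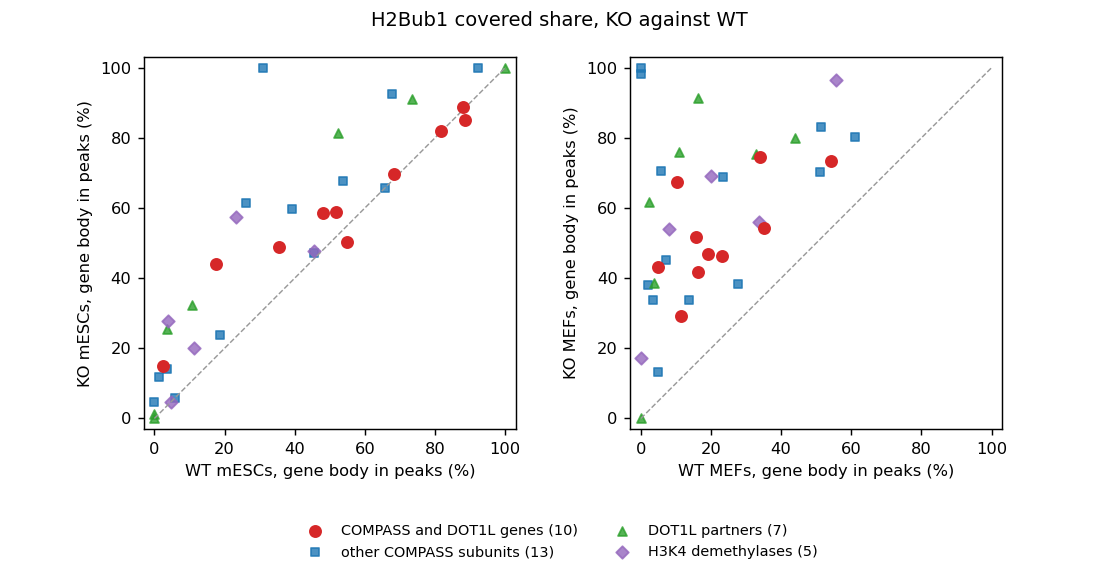
H2Bub1 covered share in KO (vertical axis) against WT (horizontal axis), each in percent of the gene body, for the 10 genes (red circles) and the 25 genes of the 3 other lists, in mESCs (left) and MEFs (right), with the dashed line at equal shares. In MEFs the 35 points lie on or above the line, and in mESCs Kmt2b and Wdr5 lie visibly below it.

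At the promoters of the 25 genes the direction was mixed. Of the 15 with Pol II peaks in both mESC genotypes, 6 were lower and 9 higher in KO, with a median log2 ratio of 0.062, near the 47.5% lower and the median of 0.025 over all genes. Among these 15, Kdm5b, an H3K4 demethylase, had the largest drop, with folds of 11.7 and 4.65 in WT and KO mESCs. Kdm6a, the H3K27 demethylase of KMT2C and KMT2D complexes, had the largest increase, with 3.87 and 7.34. Dpy30 had no peak at the start of its gene record in any library. At its other annotated starts it had 2.71 (WT) and 8.08 (KO) in mESCs, and 21.7 (WT) and 14.2 (KO) in MEFs. Bod1, Bod1l and Kdm1b had a peak in WT mESCs only and Kdm5c in KO mESCs only. In MEFs 14 of 22 were lower and 8 higher, with a median of -0.18, against 67.7% lower and -0.23 over all genes. The difference between these lists and the 10 genes was not tested.

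Dot1l was also compared with the 6959 genes of 0.5 to 2 times its length, by the distance between their 4 H2Bub1 covered shares. The nearest were Nmt1, with 78.8%, 82.5%, 35.7% and 80.7% (WT mESCs, KO mESCs, WT MEFs, KO MEFs) and a distance of 6.98 points, then Kpnb1 (9.91 points) and Ppp5c (10.3 points). Nmt1 was chosen for this likeness, and it differed from Dot1l in that its share in KO MEFs was above that in WT mESCs.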

How the data were processed

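The 8 peak lists of H2Bub1 and Pol II were used, and the 8 other samples (inputs and Pol II phosphorylated at serine 2) were not used here. Chromatin was prepared with N-ethylmaleimide in the buffers and sequenced as short single-end reads. The authors aligned reads to mm10 with Bowtie 1.0.0 and called peaks per library with MACS2 2.1.1.20160309, versions from the submitters' processing notes. The control and thresholds are not given in the sources used here. H2Bub1 was scaled by DESeq2 size factors over intergenic regions and Pol II by mapped reads, and how this entered the calls is not stated. The deposited values are the fold (a linear ratio over local background), -log10 p and -log10 q per peak and, for Pol II, how far the summit lies from the peak start. A fold is relative to its own library, and deeper libraries give more and wider peaks.

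Positions were made 1-based and set against GENCODE M21 on the same build. The gene body ran from TSS to transcript end, the promoter was 1000 bp either side of the TSS, and overlap needed 1 bp. Steps of 10 points and of 1.5 times were used for counts. All 10 genes are named, other genes only from the lists, and the nearest 3 to Dot1l by Euclidean distance. The genes and lists were chosen with earlier results of these data known. The alternatives tried were lists of equal length, a limit of 3 on -log10 q, joining peaks less than 1000 bp apart, the first 5000 bp, 20 points, and other promoter windows. The functions were tested on simulated peaks. Computing used Python 3.11.15, numpy 2.4.6, pandas 2.3.3, scipy 1.17.1 and matplotlib 3.10.9.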

Additional observations from a re-analysis of the deposited data

Results flagged for a closer look

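In 6 cases the genotype difference of a gene in H2Bub1 covered share, H2Bub1 fold or Pol II promoter fold had opposite signs in the cell types, with 1 library per group, and none of these differences was tested. The Dot1l Pol II promoter log2 ratio of KO to WT was -1.04 in mESCs and 0.048 in MEFs, a gap of 1.09. For Kmt2b it was -0.19 in mESCs and 0.79 in MEFs, a gap of 0.97. The Kmt2b H2Bub1 covered share was 3.40 points lower in KO mESCs and 36.1 points higher in KO MEFs, a gap of 39.5 points. The Kmt2c H2Bub1 fold differed by -0.376 (KO minus WT) in mESCs and by 0.768 in MEFs, a gap of 1.144, and that of Rbbp5 by -0.113 and 1.24, a gap of 1.36. The Wdr5 covered share was 4.62 points lower in KO mESCs and 17.9 points higher in KO MEFs, a gap of 22.5 points. With a -log10 q of 3 or more the signs of Wdr5 were the same, 17.6 points higher in KO mESCs and 29.2 in KO MEFs, and over the first 5000 bp its mESC difference was 0. Kmt2b had a mESC difference of -14.0 points with that limit and of 0 over the first 5000 bp.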

How the results depend on the processing

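A value was taken as unchanged where it stayed within 1.5 times the reported one. Of 130 counts and medians recomputed, 111 were unchanged, 18 moved and 1 changed sign, and of 239 values of single genes 170 were unchanged, 53 moved and 16 changed sign. No paired analysis was possible because each group was 1 library. For H2Bub1, with 20 points as the step 1 gene was higher in KO mESCs, and 2 were lower in KO MEFs than in KO mESCs. Over the first 5000 bp the median difference was 8.78 points for KO against WT mESCs, -22.4 for WT MEFs against WT mESCs and 0 for KO MEFs against KO mESCs, where 1 gene was lower (3 with equal numbers of peaks). In that stretch Dot1l (0.42 points), Setd1a (9.18), Kmt2a (5.58) and Rbbp5 (-21.3) changed sign between the WT cell types, and Setd1a (5.68) between the KO ones. With a -log10 q of at least 3 the median was 44.3 points for KO against WT MEFs and 9.91 for KO MEFs against KO mESCs, the latter of opposite sign. Under that limit the sign also changed for Wdr5 (17.6), Setd1b (-0.49) and Ash2l (-3.61) in KO against WT mESCs, for Kmt2c (-1.03) and Rbbp5 (-11.0) between the WT cell types, and for Dot1l (14.0), Setd1a (10.4) and Setd1b (15.7) between the KO ones. With peaks less than 1000 bp apart joined, it changed for Dot1l (-4.53) and Kmt2d (-4.24) in KO against WT mESCs, and with equal numbers of peaks for Kmt2a (10.1) between the WT cell types. For Pol II in mESCs, 2 genes had a promoter peak in WT only with that q limit, and 0 with the promoter from 100 bp upstream to 300 bp downstream, where no WT peak of Kmt2a was found. With the summit required in the window, KO only peaks were found at 1 gene in mESCs and 1 in MEFs, where WT only peaks were also found at 1. With any annotated TSS 1 gene, Ash2l, was higher in KO mESCs. With equal numbers of peaks, WT body peaks were 6 in 3 genes in mESCs and 2 in 2 genes in MEFs, so that KO no longer had fewer (6 and 5). The cause of these changes was not tested. The unknown depth limits what an absent peak means.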
